A study of Mus musculus with 8 samples.

Results

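The interferon-induced genes around Cxcl10 were examined in the livers of mice aged 2 days, in 4 animals lacking Mfp2 (genotype Mfp2 -/-, knockout) and 4 WT animals (wild type). Total RNA of each liver was hybridised to 1 Affymetrix array, and the values given are RMA values on the log2 scale, so that a difference of 1 is a doubling. Mfp2, encoded by Hsd17b4, works in peroxisomes, where it takes part in shortening very long and branched fatty acids and in making bile acids. The labels give neither strain, sex nor litter of the animals, nor how the deletion was made. The genes are those of 9 symbols (Cxcl10, Cxcl9, Ifit1, Ifit3, Isg15, Irf1, Irf7, Gbp2 and Usp18), taken where a probe set was annotated to exactly 1 of them. This gave 10 probe sets for 8 genes, of 45037 probe sets and 18193 genes in all. The only probe set of Isg15 is annotated to a second gene as well, so Isg15 is not analysed here. The genes were chosen by the Cxcl10 difference between knockout and wild type livers in these same arrays, so the differences of all members are given as a description, with no test, and the question was whether the Cxcl10 difference goes with a general interferon response.

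Interferons are secreted proteins that act through cell surface receptors and the JAK and STAT proteins. Type I interferons act through a complex that contains STAT2 and IRF9, binds interferon-stimulated response elements (ISRE) and induces antiviral genes such as the Ifit family. Interferon-gamma, made mainly by T and NK cells, acts through gamma-activated sites (GAS) in promoters and induces Irf1, guanylate-binding proteins and antigen presentation genes. Cxcl10 and Cxcl9 are chemokines that attract cells bearing the receptor CXCR3. Cxcl10 can also be induced by NF-kappaB, a transcription factor of inflammatory signalling.

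The promoters of 5 of the genes are shown because the genes differed in which livers were high. They were picked from the windows that hold a match to an element of these pathways, so the choice is not evidence of such elements. They are the 250 bases before the start of transcription in RefSeq (GRCm38.p6), read 5′ to 3′ on the strand of the gene, and 8 of the 9 symbols were found in that table. They lie at chr5:92348890-92349139 (minus strand) for Cxcl10, chr5:92328080-92328329 (minus strand) for Cxcl9, chr3:142620413-142620662 (plus strand) for Gbp2, chr11:53769764-53770013 (plus strand) for the first of the Irf1 starts and chr19:34640639-34640888 (plus strand) for Ifit1. Capitals mark matches, on either strand, to an ISRE (GAAA, 2 bases of any kind, GAAA), a GAS (TTC, 3 bases of any kind, GAA) or an NF-kappaB motif (GGGA, 4 bases of any kind, CC).
Cxcl10: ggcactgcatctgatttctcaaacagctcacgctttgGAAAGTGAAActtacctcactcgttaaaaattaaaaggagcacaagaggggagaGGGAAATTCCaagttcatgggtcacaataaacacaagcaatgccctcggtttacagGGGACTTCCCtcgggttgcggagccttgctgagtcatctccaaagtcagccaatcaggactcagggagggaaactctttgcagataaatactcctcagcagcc
Cxcl9: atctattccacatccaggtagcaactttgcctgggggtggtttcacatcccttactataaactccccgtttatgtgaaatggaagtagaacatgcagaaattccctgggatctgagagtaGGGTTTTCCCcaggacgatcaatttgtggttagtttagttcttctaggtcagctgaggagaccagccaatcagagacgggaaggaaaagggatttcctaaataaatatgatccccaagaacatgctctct
Gbp2: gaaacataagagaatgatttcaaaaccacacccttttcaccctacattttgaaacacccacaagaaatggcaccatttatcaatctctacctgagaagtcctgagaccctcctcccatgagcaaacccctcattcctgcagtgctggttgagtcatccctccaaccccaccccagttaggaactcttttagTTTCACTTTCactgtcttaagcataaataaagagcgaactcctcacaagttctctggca
Irf1: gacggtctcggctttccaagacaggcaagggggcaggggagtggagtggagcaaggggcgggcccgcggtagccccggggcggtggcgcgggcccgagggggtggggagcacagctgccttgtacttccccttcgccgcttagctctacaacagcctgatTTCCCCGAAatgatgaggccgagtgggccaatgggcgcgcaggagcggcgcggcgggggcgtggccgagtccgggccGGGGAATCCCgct
Ifit1: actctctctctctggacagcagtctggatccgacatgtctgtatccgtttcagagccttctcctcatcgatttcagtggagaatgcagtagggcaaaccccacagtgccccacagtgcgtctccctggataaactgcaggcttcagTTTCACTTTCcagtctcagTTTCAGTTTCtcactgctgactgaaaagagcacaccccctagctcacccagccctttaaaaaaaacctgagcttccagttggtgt
Of 32851 promoter windows of the same length, 2.98% held the ISRE motif, 7.02% the GAS motif and 17.6% the NF-kappaB motif. The Cxcl10 window held 1 ISRE match, from base 213 to base 204 before the start, and 2 NF-kappaB matches, the nearer of them from base 103 to base 94. The Ifit1 window held 2 ISRE matches and the Gbp2 window 1. The Irf1 window held 1 GAS match, from base 90 to base 82 before the start, and 1 NF-kappaB match. The Cxcl9 window held 1 NF-kappaB match. Of the windows not shown, Ifit3 held 2 ISRE matches and Isg15 held 3, and those of Irf7 and of the second Irf1 start held no match to any of these motifs. These are matches of letters, not shown binding sites.

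The arrays matched their labels. Hsd17b4 was at 4.29, 3.76, 3.25 and 4.05 in knockout livers 1 to 4, against 8.18, 8.71, 8.97 and 8.15 in wild type livers 1 to 4. The difference was -4.66 ± 0.25 (SE), with a limma adjusted p of 0.00010. The 9 measured hepatocyte markers had list means of 12.3 to 12.4 in knockout and 12.2 to 12.3 in wild type livers, among array medians of 3.68 to 3.73, so the tissue showed the defining genes of liver. Arrays correlated at 0.983 to 0.993 within groups and at 0.976 to 0.989 across groups (Pearson). Erythroid markers were lower in the knockout, with all 10 measured means lower and a median difference of -0.83. The 3 past the threshold, Ermap, Ank1 and Rhag, all genes of the red cell membrane, fell by 0.76, 0.92 and 0.80 on the log2 scale (limma adjusted p 0.0366, 0.0391 and 0.0480). In whole liver, fewer cells of a type and less RNA per cell cannot be told apart. Xist, expressed from the silenced X chromosome of females, was high in knockout 1, knockout 2 and wild type 3. In all, 343 probe sets passed an adjusted p of 0.05 in limma, 0.198% of all probe sets being higher and 0.564% lower in the knockout.

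Cxcl10 was higher in every knockout liver than in any wild type liver. It was at 6.58, 6.23, 8.07 and 7.49 in knockout livers 1 to 4, against 4.91, 4.05, 5.38 and 5.33 in wild type livers 1 to 4. The groups did not overlap, knockout 3 was the highest liver and knockout 4 came next. The means were 7.09 ± 0.84 in knockout and 4.92 ± 0.61 in wild type livers (SD, n = 4 each), a difference of 2.17 ± 0.41 (SE) or 4.51-fold. Replicates 1 and 2 taken alone gave a difference of 1.93, and replicates 3 and 4 gave 2.42. In replicates 1 and 2 Xist was at 8.59 and 9.28 in the knockout, against 2.83 and 4.19 in the wild type livers. Genotype and the Xist pattern cannot be told apart in that pair of replicates. Knockout 3 and knockout 4, with the most Cxcl10, had low Xist. The erythroid marker medians, relative to the wild type mean, were lowest in knockout 3 and knockout 4. They were -0.62, -0.43, -1.20 and -1.07 in knockout livers 1 to 4. In wild type livers 1 to 4 they were -0.05, -0.06, 0.11 and -0.01. Adding the mean of the erythroid markers to the fit, where it nearly coincides with genotype, left a Cxcl10 difference of 0.60. Nothing is read from that fit, and a link of Cxcl10 to the erythroid markers was not tested. Cxcl10 was the 1 of the 10 probe sets past the threshold over all probe sets, beside a background of 0.762% in either direction and 0.198% higher, and since it was chosen for this difference nothing is read from the count. Without any single array other than knockout 2 the count was 0, as it was with quantile normalization again, median centring, or trended and robust variance.

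Cxcl9, the chemokine that shares the receptor CXCR3 with Cxcl10, did not separate the groups. Its brighter probe set was at 4.24, 4.02, 3.52 and 4.72 in knockout livers 1 to 4, against 3.54, 3.78, 4.14 and 3.75 in wild type livers 1 to 4. Knockout 4 was the highest and knockout 3, the liver with the most Cxcl10, was the lowest. The difference was 0.32 ± 0.23 (SE), and 0.13 without knockout 4. The second probe set, under the median of every array, differed by 0.038 ± 0.089. Cxcl11, the other ligand of CXCR3 and chosen after its values were seen, differed by 0.04 ± 0.11. Cxcr3 itself lay between 3.38 and 3.56 in knockout and between 3.58 and 3.76 in wild type livers, a difference of -0.22 ± 0.09 (limma adjusted p 0.347). These values lie near or under the array medians, and the values used here carry no call of which probe sets are above background.

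Irf1, which encodes an interferon-inducible transcription factor, and Gbp2, which encodes a guanylate-binding protein, were far above the other livers in knockout 4 only. Gbp2 was at 5.75, 5.50, 4.96 and 8.44 in knockout livers 1 to 4, against 6.15, 5.06, 5.28 and 5.43 in wild type livers 1 to 4. Knockout 4 stood alone, and the other 3 knockout livers lay within or below the wild type range. The means of 6.16 ± 1.56 in knockout and 5.48 ± 0.47 in wild type livers (SD, n = 4 each) differed by 0.68 ± 0.64 (SE), and by -0.081 without knockout 4. The second Gbp2 probe set gave the same picture, at 8.17 in knockout 4 and 4.77 to 5.29 in the remaining knockout livers, against 4.96 to 5.75 in the wild type. Irf1 was at 7.28, 6.86, 6.85 and 8.77 in knockout livers 1 to 4, against 6.75, 6.85, 6.66 and 7.11 in wild type livers 1 to 4. Here too knockout 4 was the highest, knockout 1 lay just above the wild type range and the other 2 within it. The difference was 0.60 ± 0.37 (SE), and 0.15 without knockout 4. In the fit with the erythroid markers the signs of both turned, to -0.69 for Irf1 and -1.15 for Gbp2. These markers nearly coincide with genotype, so no direction is read from that fit.

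Of the genes known chiefly as type I targets, the Ifit genes did not differ in either direction beyond the spread of the livers, and Usp18 was modestly higher. Ifit1, which binds viral RNA, was at 3.43, 3.00, 2.70 and 3.88 in knockout livers 1 to 4, against 3.24, 2.84, 3.94 and 3.47 in wild type livers 1 to 4. The groups overlapped, with a wild type liver highest and knockout 3 lowest, and the difference was -0.12 ± 0.28 (SE). Ifit3, its partner protein, ranged from 2.73 to 3.43 in knockout and from 2.91 to 3.44 in wild type livers, a difference of 0.023 ± 0.168. Both Ifit means lay under the median of every array, so a small response could have been missed in these dim probe sets. Irf7, the amplifier of type I interferon production, was at 4.76, 5.12, 4.58 and 5.53 in knockout livers 1 to 4, against 5.004, 4.37, 4.63 and 5.08 in wild type livers 1 to 4. Its groups overlapped, with a difference of 0.23 ± 0.22 (SE).

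Usp18 encodes the protease that removes ISG15 from proteins and dampens type I receptor signalling. It was at 6.84, 6.79, 6.92 and 6.88 in knockout livers 1 to 4, against 6.76, 5.63, 6.41 and 6.43 in wild type livers 1 to 4. All 4 knockout livers lay above all wild type livers, closely together, while wild type 1 came within 0.1 of knockout 1 and knockout 2. The difference was 0.55 ± 0.20 (SE), 1.46-fold, and 0.32 without wild type 2, the lowest liver. Cxcl10 and Usp18 were thus the 2 of 8 genes whose groups did not overlap, where 3.59% of all genes had all knockout livers above all wild type livers, and this count rests on the comparison that chose the set.

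**Figure D1:**
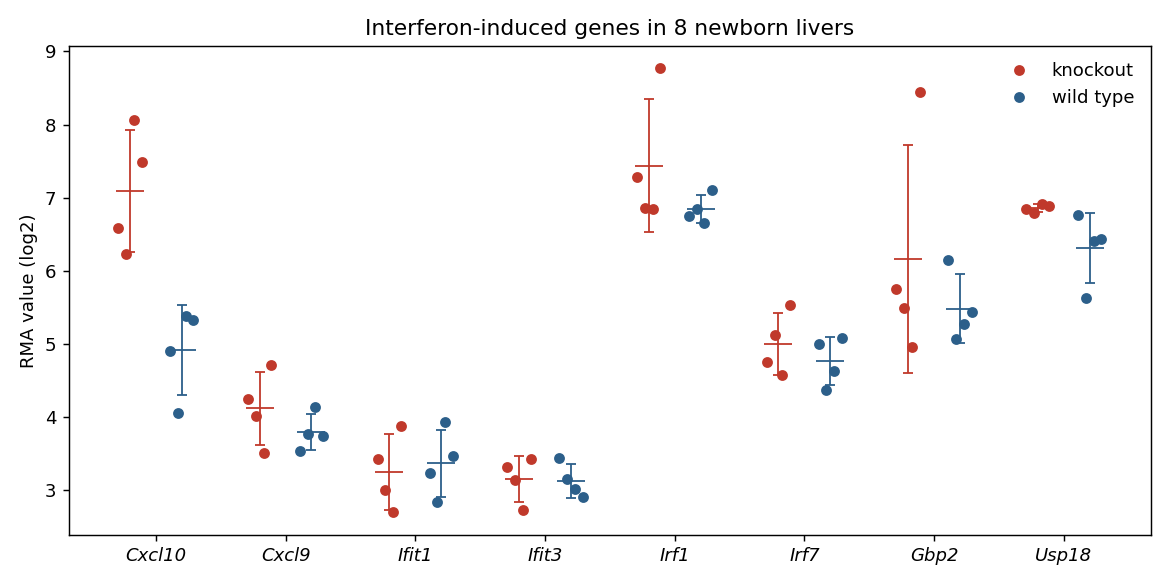
RMA values (log2, vertical axis) of the 8 genes in the 4 knockout livers (red, left) and 4 wild type livers (blue, right), each ordered by replicate 1 to 4, where points are livers and bars the mean and SD. Cxcl10 separates the groups by 2.17 on average, while Irf1 and Gbp2 are far above the other livers in knockout 4 only.

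The members did not share 1 order of the livers. Of the 8 genes, 7 had higher means in the knockout, with a median difference of 0.44, beside 53.3% higher means and a median of 0.014 over all 18193 genes. Without knockout 4 the median was 0.088. Knockout 4 was the highest liver in 4 of the 8, namely Cxcl9, Irf1, Irf7 and Gbp2. Knockout 3, the highest in Cxcl10 and Usp18, was the lowest of all 8 livers in 4 others, namely Cxcl9, Ifit1, Ifit3 and Gbp2.

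A wider list of type I interferon-stimulated genes that holds none of the 9 symbols was split between higher and lower values. Of 52 measured genes, 30 had higher and 22 lower means in the knockout (53.3% of all genes were higher), with a median difference of 0.075, or -0.014 without knockout 4. In limma 0 rose and 1 fell over all probe sets, beside 0.308% of all genes higher and 0.841% lower, and at an unadjusted p under 0.05 there were 2 higher and 6 lower, where 14.6% of all genes passed in either direction. The 1 was Isg20, an interferon-induced exonuclease, which fell by 1.03 on the log2 scale (SE 0.17, limma adjusted p 0.0383). It was at 8.65, 8.95, 8.32 and 8.29 in knockout livers 1 to 4, against 9.55, 9.27, 9.84 and 9.67 in wild type livers 1 to 4. All knockout livers were below all wild type livers, and the 2 with the least Isg20 were those with the lowest erythroid markers. In the fit with the erythroid markers the Isg20 difference was -0.15 (limma adjusted p 0.978). There the covariate nearly coincides with genotype and 0 of all probe sets passed, so nothing is read from that loss. A link of Isg20 to the erythroid markers was not tested. The Isg20 call was also lost without knockout 1, 3 or 4 or wild type 1, 3 or 4, at limma adjusted p of 0.0638 to 0.136.

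The genes next in order of p had differences in both directions. Ube2l6, the conjugating enzyme for ISG15, differed by -0.68 ± 0.16 (limma adjusted p 0.0882) and ranged from 5.79 to 6.52 in knockout and from 6.90 to 7.08 in wild type livers. Rsad2, which encodes the antiviral protein viperin, differed by -0.87 ± 0.22 (limma adjusted p 0.126). It was at 9.11, 8.97, 9.13 and 8.20 in knockout livers 1 to 4, against 9.27, 9.90, 9.80 and 9.92 in wild type livers 1 to 4, so that knockout 4, high in Gbp2 and Irf1, was the lowest in Rsad2. Phf11d differed by 0.31 ± 0.08 (limma adjusted p 0.147). In the whole list 1 gene lay wholly above and 5 wholly below the wild type range in the knockout, where 3.59% and 5.02% of all genes did so.

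**Figure D2:**
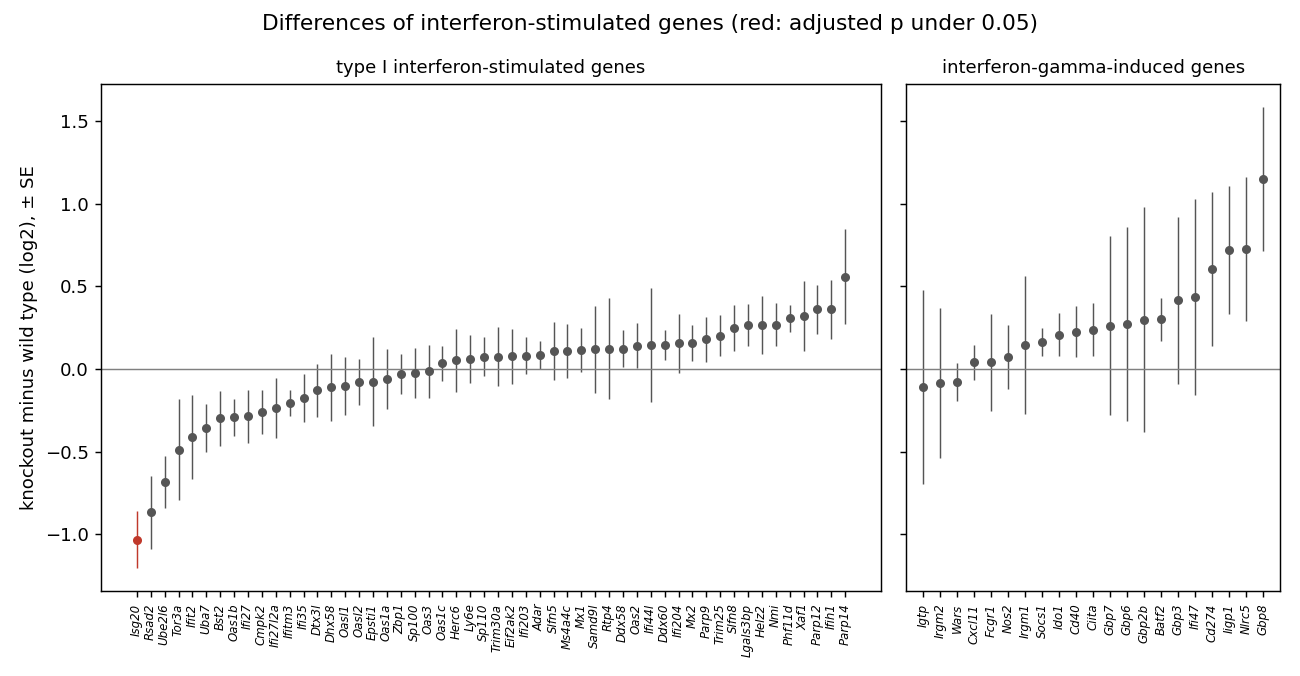
Difference of knockout minus wild type livers (log2, vertical axis) with its SE for each measured gene of the type I (left, 52 genes) and interferon-gamma (right, 21 genes) lists, ordered by size. Isg20, in red, is the 1 gene past the adjusted threshold, and the type I genes spread on both sides of 0.

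Interferon-gamma-induced genes were high in knockout 4 and low in knockout 3. Of 21 measured genes 18 had higher means in the knockout, beside 53.3% of all genes. The median difference was 0.24, or 0.043 without knockout 4. It was -0.057 in the fit with the erythroid markers, which nearly coincide with genotype. In limma 0 passed the threshold over all probe sets, beside 1.15% of all genes, and 2 were higher at an unadjusted p under 0.05, a smaller share than the 14.6% of all genes. Relative to the wild type mean, the median over the list was 0.21, 0.16, -0.32 and 1.51 in knockout livers 1 to 4, against -0.12, 0.01, 0.03 and 0.07 in wild type livers 1 to 4. Knockout 4 was the highest of all livers in 16 of the 21 genes, whereas it was the highest in 10.6% of all genes. Knockout 3 was the lowest in 9 of the 21, against 17.7% of all genes.

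Among its members, the lowest p belonged to Gbp8, a guanylate-binding protein, at 5.39, 5.32, 4.06 and 6.47 in knockout livers 1 to 4, against 3.56, 4.60, 3.96 and 4.53 in wild type livers 1 to 4. Its difference was 1.15 ± 0.44 (limma adjusted p 0.329), and knockout 3 lay within the wild type range. Iigp1, an immunity-related GTPase, differed by 0.72 ± 0.39 (limma adjusted p 0.542), Batf2 by 0.30 ± 0.13 and Socs1, a feedback inhibitor of JAK kinases, by 0.16 ± 0.08. The GTPases Igtp and Irgm1, chosen after their values were seen, show the pattern of a single liver. Igtp was at 8.16, 7.68, 6.80 and 10.3 in knockout livers 1 to 4, against 8.14, 8.15, 8.40 and 8.64 in wild type livers 1 to 4, a difference of -0.11 ± 0.59. Irgm1 was at 8.42 in knockout 4, between 6.26 and 6.72 in the remaining knockout livers, against 6.56 to 7.04 in the wild type.

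**Figure D3:**
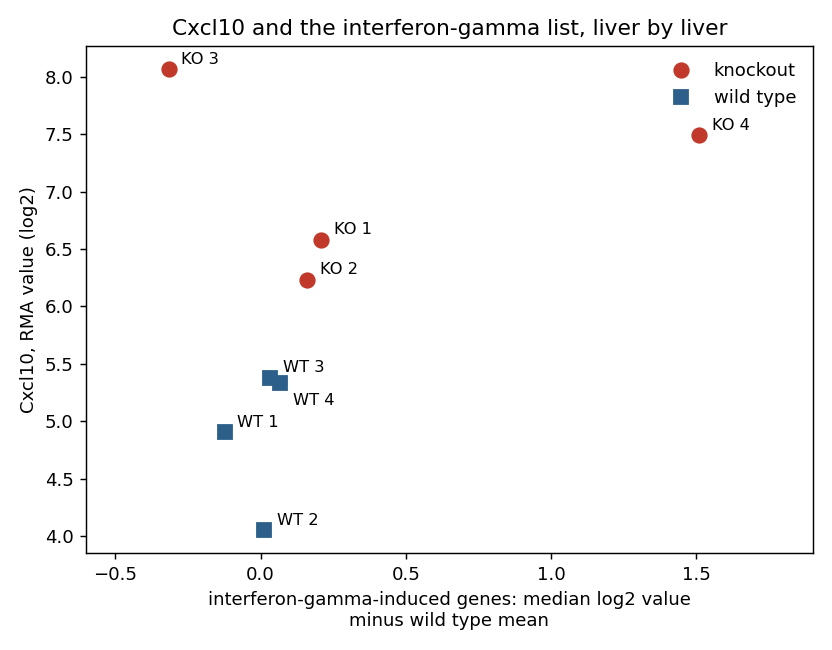
Cxcl10 (RMA value, log2, vertical axis) against the median of the 21 interferon-gamma-induced genes relative to the wild type mean (log2, horizontal axis), with 1 point per liver, knockout red circles and wild type blue squares. Knockout 3 and knockout 4 have the most Cxcl10 but lie at opposite ends of the interferon-gamma list, at -0.32 and 1.51.

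Antigen presentation genes contained the 1 rise among the interferon lists, beside 0.308% of all genes. H2-D1, a class I histocompatibility heavy chain, rose by 0.58 ± 0.10 (limma adjusted p 0.0454) and ranged from 9.58 to 9.93 in knockout and from 9.02 to 9.29 in wild type livers. The call was lost without any 1 of the 8 arrays, at adjusted p of 0.0637 to 0.164. The mean over all its probe sets differed by 0.29 (limma adjusted p 0.0663), and class I genes are so alike in sequence that their probe sets can share signal. H2-K1, chosen after its values were seen, differed by 0.91 ± 0.21 (limma adjusted p 0.0896). Of 15 measured genes, 12 had higher means, beside 53.3% of all genes, and 4 had all knockout livers above all wild type livers, beside 3.59%. At an unadjusted p under 0.05, 5 were higher and 0 lower, beside 14.6% of all genes in either direction, and the median difference was 0.27, or 0.093 without knockout 4. Tap1, a peptide transporter chain that IRF1 is known to induce and chosen after its values were seen, was at 6.72 in knockout 4 and from 4.65 to 5.0 in the remaining knockout livers, against 4.82 to 5.31 in the wild type.

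**Figure D4:**
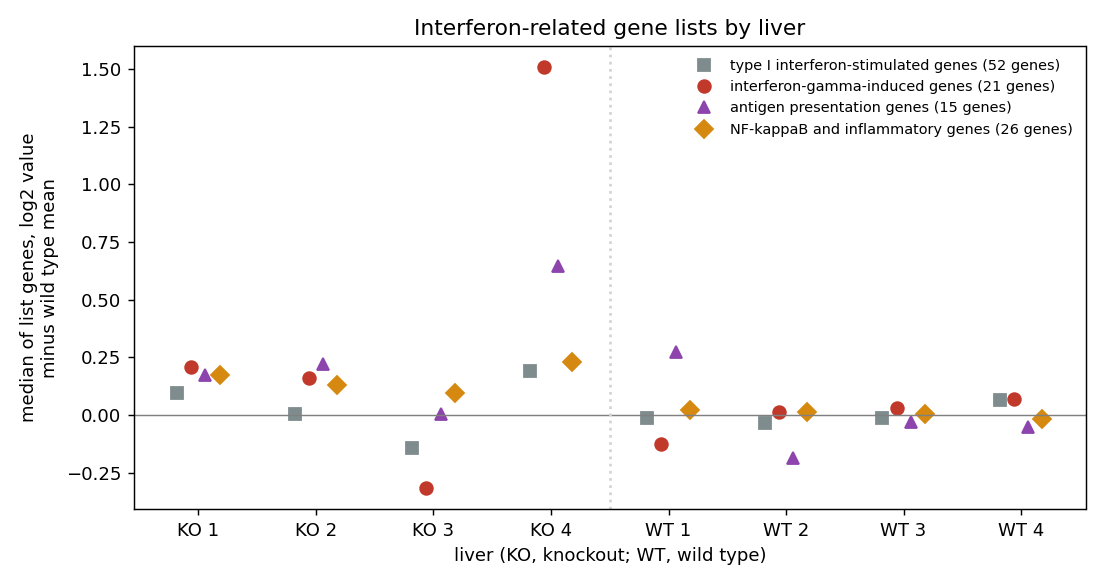
Median over the genes of each of 4 lists of the log2 value minus the wild type mean (vertical axis) in knockout livers 1 to 4 (left) and wild type livers 1 to 4 (right), with 1 symbol per list. The interferon-gamma list reaches 1.51 in knockout 4 and -0.32 in knockout 3, while the type I list stays between -0.14 and 0.19 in all 8 livers.

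No gene of the interferons or of their receptors passed the threshold, which 1.15% of all genes passed, and 14.6% of all genes had an unadjusted p under 0.05. All 9 measured interferon genes were compared, 8 with means under the median of every array, and 0 passed in limma, with 1 lower at an unadjusted p under 0.05. Ifnb1, the type I interferon beta, differed by -0.31 ± 0.12 (limma adjusted p 0.356), Ifna1 by -0.33 ± 0.16, Ifna5 by -0.16 ± 0.14 and Ifna9 by 0.12 ± 0.10. Ifng, chosen after its values were seen, lay between 1.73 and 1.98 in knockout and between 1.77 and 1.98 in wild type livers, and was at 1.93 in knockout 4. Of 20 genes of receptors and signalling 0 passed in limma, with 2 higher and 1 lower at an unadjusted p under 0.05, a share near that of all genes, and a median difference of 0.068. Ifnar1, a chain of the type I receptor, differed by 0.15 ± 0.09 and Ifngr1, a chain of the gamma receptor, by 0.37 ± 0.16 (limma adjusted p 0.562 and 0.408). Irf5, a transcription factor of inflammatory genes, differed by 0.43 ± 0.14 (limma adjusted p 0.246), and Socs3, a feedback inhibitor of cytokine receptors, differed by -0.33 ± 0.12 (limma adjusted p 0.286). Stat2 and Irf9 differed by 0.14 ± 0.20 and 0.09 ± 0.24, and Irf9 was highest in knockout 4, at 6.54. Of 16 nucleic acid sensors 0 passed, with Tlr3, the receptor for double-stranded RNA, at 0.51 ± 0.11 (limma adjusted p 0.0689) and 2 higher at an unadjusted p under 0.05.

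Among NF-kappaB and inflammatory genes most means were higher, but none passed the threshold. Of 26 measured genes 19 had higher means, beside 53.3% of all genes, with a median difference of 0.12. In limma 0 passed over all probe sets, 8 were higher and 0 lower at an unadjusted p under 0.05, where 14.6% of all genes passed in either direction. In 6 of the 26 all knockout livers lay above all wild type livers, beside 3.59% of all genes. Relative to the wild type mean, the list medians were 0.18, 0.13, 0.09 and 0.23 in knockout livers 1 to 4. They were 0.02, 0.01, 0.01 and -0.02 in wild type livers 1 to 4. Knockout 3, with the most Cxcl10, thus had the lowest list median of the knockout livers. It was the highest liver in 6 of the 26 genes and the lowest in 5. Tnfaip3, a feedback inhibitor of NF-kappaB, had the lowest p. It was at 5.62, 4.71, 5.77 and 5.82 in knockout livers 1 to 4, against 4.24, 4.56, 4.71 and 4.34 in wild type livers 1 to 4. Knockout 2, the knockout liver with the least Cxcl10, lay at the top of the wild type range, and the difference was 1.02 ± 0.23 (limma adjusted p 0.0896). Nfkbia, the inhibitor IkappaB-alpha, and Birc3, an inhibitor of apoptosis, were chosen after their values were seen. Nfkbia was at 9.75, 9.32, 10.3 and 9.82 in knockout livers 1 to 4, against 9.12, 9.36, 9.03 and 8.87 in wild type livers 1 to 4, so that knockout 3 was the highest, as it was for Cxcl10. Its difference was 0.70 ± 0.19 (limma adjusted p 0.15), and that of Birc3 was 0.51 ± 0.12 (limma adjusted p 0.112). The cytokines Tnf, Il1b and Il6, also chosen after their values were seen, differed by 0.11 ± 0.09, -0.21 ± 0.19 and -0.09 ± 0.10.

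Among 36 measured chemokines and chemokine receptors outside the 9 symbols, Cxcl11 and Cxcr3 included, 0 passed in limma. At an unadjusted p under 0.05, 4 were higher and 2 lower. In all 20 had higher and 16 lower means, with a median difference of 0.028. For these and the cell markers that follow, the shares of all genes were 1.15% past the threshold and 14.6% at an unadjusted p under 0.05. Cxcr4 had the lowest p, at -0.43 ± 0.13 (limma adjusted p 0.201). Cxcl1 and Ccl9, chosen after their values were seen, differed by 0.89 ± 0.42 and 0.49 ± 0.15 (limma adjusted p 0.463 and 0.224). Markers of T, NK and macrophage lineages were not at their highest in the livers with the most Cxcl10. Relative to the wild type mean, T and NK cell markers had list medians of -0.07, 0.18, -0.10 and 0.02 in knockout livers 1 to 4, against 0.15, -0.03, 0.04 and -0.22 in wild type livers 1 to 4. For Kupffer cell and macrophage markers these were 0.12, 0.53, -0.15 and 0.16 in knockout livers 1 to 4, against 0.23, 0.23, -0.07 and -0.26 in wild type livers 1 to 4. Neither list was highest in knockout 3 or knockout 4. Of the 17 macrophage markers 12 had higher means in the knockout, beside 53.3% of all genes. Their median difference was 0.20, or 0.17 without knockout 4. Of the 17 T and NK cell markers 10 had higher means, with a median difference of 0.04. The part of these cells in the Cxcl10 difference was not tested. In limma 0 of 17 genes passed in each, with 0 of the T and NK cell markers and 2 of the macrophage markers, both higher, at an unadjusted p under 0.05. The lowest p belonged to Nkg7 and Mpeg1, which differed by -0.59 ± 0.29 and by 0.42 ± 0.17 (limma adjusted p 0.481 and 0.358). Neutrophil markers had list medians of -0.31, -0.43, -0.33 and 0.22 in knockout livers 1 to 4, against -0.06, 0.26, -0.23 and -0.07 in wild type livers 1 to 4, and their part in the pattern of knockout 4 was not tested. The medians of the remaining lists differed by -0.11 for endothelial markers, -0.11 for plasmacytoid dendritic and B cell markers, 0.14 for hepatocyte and 0.10 for bile duct markers, with 0 genes past the threshold in each in limma and, at an unadjusted p under 0.05, 0, 2, 3 and 0. The lowest p of these lists and of the neutrophil list belonged to Lyve1 (0.61 ± 0.30), Vpreb1 (-0.68 ± 0.22), Fgb (0.31 ± 0.09), Epcam (0.33 ± 0.18) and Ltf (-0.47 ± 0.22), at limma adjusted p of 0.187 to 0.552.

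The genes whose profile over the 8 livers was most like that of Cxcl10 were of several kinds. Likeness was the root mean square gap between log2 values centred on each gene's own mean, so it follows the size of the difference as well as its pattern, and the values are a description. The nearest was Akr1c19, an aldo-keto reductase, with a gap of 0.594, followed by Fdps of sterol synthesis (0.639), the glutathione transferase Gsta4 (0.646), Ubd (0.668) and Hbegf, a growth factor that binds the EGF receptor (0.694). Akr1c19 was at 5.67, 5.37, 6.85 and 5.56 in knockout livers 1 to 4, against 3.95, 4.40, 4.36 and 4.72 in wild type livers 1 to 4, and like Cxcl10 it was highest in knockout 3. Ubd encodes the ubiquitin-like protein FAT10, known to be induced by interferon-gamma together with tumour necrosis factor. It was at 4.63, 4.19, 4.52 and 5.93 in knockout livers 1 to 4, against 3.54, 2.72, 3.02 and 3.15 in wild type livers 1 to 4. Like Cxcl10 it was higher in every knockout liver, by 1.71 on average, but its highest liver was knockout 4. What Akr1c19 and Ubd share with Cxcl10 largely follows from the choice by likeness and is no separate result. The 5 genes nearest to Gbp2, a set added after its values were seen, were Calhm6 (gap 0.271), Ifi47 (0.441), Irf1 (0.527), Gbp3 (0.528) and Irgm1 (0.548). All 5 were highest in knockout 4, which follows from the choice by likeness to Gbp2 and is no separate result.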

How the data were processed

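Liver RNA of 4 knockout and 4 wild type pups was hybridised to Affymetrix arrays, 1 per liver. The values are on the log2 scale and were summarised by the authors with RMA, as the submitters' processing notes name it. RMA corrects background, equalises the distribution of probe values over arrays and summarises each probe set. No source used here gives its settings. Because arrays were equalised, a change in total mRNA cannot be seen. Arrays have no read depth, and their number limits the precision. Values ran from 1.11 to 13.7.

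The 64 array controls were left out, which left 45037 probe sets, of which 34945 are annotated to 1 gene, 932 to several and 9160 are unnamed here. Symbols were updated through Entrez identifiers, found for 34741, in the RefSeq gene table of GRCm38.p6. The brightest probe set on average stood for a gene, giving 18193 genes. Groups were compared with limma 3.58.1 under R 4.3.3, two-sided and without covariates, by lmFit followed by eBayes, with Benjamini-Hochberg adjustment over all probe sets and a threshold of 0.05. The fit was tested on simulated data. The design text counts 4 mice per group, so arrays were treated as different animals.

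The 9 genes and the 16 wider lists (318 entries, 282 measured) were chosen with earlier results of these data known. Genes named were all members, the targeted gene, a few receptor and signalling genes, up to 4 members past the threshold or the 1 with the lowest p of each list, the 4 with the lowest p of the lists of type I, interferon-gamma, interferon and receptor genes, and the 5 nearest in profile to Cxcl10. The same could not be done for Isg15. Others are said to be chosen after their values were seen. Alternatives were a filter on dim probe sets, quantile normalization again, median centring, trended and robust variance, array weights, blocks, Xist or erythroid covariates, the mean of all probe sets, each array left out, and, added after seeing the data, knockout 3 and knockout 4 left out together.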

Additional observations from a re-analysis of the deposited data

Results flagged for a closer look

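Of 114 groups of 4 livers tested for a liver far from the other 3, 6 were past Dixon's 95% limit, and chance alone flags about 1 in 20. The gap to the nearest other liver, as a share of the group's range, was 0.848 for the second probe set of Gbp2 in knockout livers, where knockout 4 was at 8.17 and the others between 4.77 and 5.29. The share was 0.844 for Ube2l6, where knockout 3 was at 5.79 and the other knockout livers between 6.41 and 6.52. It was 0.866 for Cxcr3, where knockout 4 was at 3.56 and the other knockout livers between 3.38 and 3.40, a spread of dim values. For the median of the nucleic acid sensing list it was 0.8296, with knockout 4 at 0.23 and the other knockout livers between 0.075 and 0.10. For Vpreb1, a B cell precursor gene, it was 0.834, with knockout 2 at 3.14 and the other knockout livers between 3.72 and 3.84. In wild type livers it was 0.899 for Nkg7, a gene of cytotoxic cells, with wild type 2 at 5.21 and the others between 4.31 and 4.40. The brighter Gbp2 probe set and Irf1, in which knockout 4 was also highest, did not reach the limit.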

How the results depend on the processing

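The count of 343 probe sets past the threshold was 914 with array weights, 537 with high Xist as a covariate, 15 with the replicate block, 4 within replicates 1 and 2, 0 with the erythroid covariate and 7 without knockout 3 and knockout 4 together, a choice made after seeing the data, and with single arrays left out it ran from 9 (without wild type 4) to 489 (without wild type 2). The median difference of the 8 genes, 0.44, was 0.087 with the erythroid covariate and ran from 0.088 (without knockout 4) to 0.53 with single arrays left out. The 1 call among type I genes was 2 with array weights, 0 with the replicate block, the erythroid covariate, within replicates 1 and 2 or without knockout 3 and knockout 4, and 0 to 1 with single arrays left out. Hsd17b4 differed by -4.27 with the erythroid covariate (adjusted p 0.713), where the covariate nearly coincides with genotype, and it passed in the other 20 alternatives. The median of the type I list ran from -0.014 (without knockout 4) to 0.11 and that of the interferon-gamma list from -0.057 (erythroid covariate) to 0.37, so both turned sign, although within the spread between livers, which for the second list includes knockout 4. In all 21 alternatives 0 interferon-gamma genes passed. Irf1 and Gbp2 turned to -0.69 and -1.15 with the erythroid covariate. Cxcl10 was higher in the knockout in all 21, by 0.60 to 2.46, but its probe set no longer passed with quantile normalization again, median centring, trended and robust variance, the erythroid covariate, within replicates 1 and 2, without knockout 3 and knockout 4 together, or without any single array but knockout 2. Same-numbered livers deviated together weakly, with correlations of -0.0039, 0.069, 0.17 and 0.26 for replicates 1 to 4, so the numbers were not taken to pair the samples. With the replicate block Isg20 and H2-D1 lost their calls (adjusted p 0.0940 and 0.0867). Among the other counts, antigen presentation calls were 0 to 3 where 1 passed and stayed at 1 in 5 of 21 alternatives, erythroid calls were 0 to 10 where 3 passed, NF-kappaB calls 0 to 3 where 0 passed, and nucleic acid sensing and chemokine calls 0 to 1 where 0 passed. The count over all probe sets itself ran from 0 to 914 across alternatives, so nothing is read from these ranges. Within replicates 1 and 2 genotype coincides with the Xist pattern. Dim probe sets, among them both Ifit genes and the interferons, limit what differences could be seen.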
